A study of Mus musculus with 30 samples.

Results

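The matrix genes described here are 10 of the 55573 genes in the expression tables of Mertk knockout mice, picked by symbol: the collagen chains Col4a3, Col8a1, Col8a2 and Col18a1, the elastic fibre proteins Efemp1 and Fbln5, the proteases Mmp2 and Htra1, the protease inhibitor Timp3 and the sulfatase Sulf2. All 10 symbols were found in both tables. Sulf2 was taken in because its level in RPE is higher in Mertk-/-V1 and Mertk-/-V3 than in B6 WT, so those 2 differences chose it and are described without a test. RNA was sequenced from the retinal pigment epithelium (RPE) of mice at P25 (postnatal day 25), with 6 libraries each of B6 WT and Mertk-/-V1 and 3 each of Mertk-/-V2 and Mertk-/-V3, and from bone marrow-derived macrophages (BMDMs, bone marrow cells grown for 7 days in conditioned medium of L929 cells) with 3 libraries of each genotype. B6 WT mice are C57BL/6 and carry no Mertk deletion. Mertk-/-V1 mice lack exon 17 of Mertk, were made in 129P2 embryonic stem cells with a neomycin cassette and were backcrossed for at least 10 generations to C57BL/6J, and they still carry a segment of 129P2 chromosome 2. Mertk-/-V2 mice lack exon 18, which was excised in the germline of Mertk f/f mice carrying Rosa26 ERT2Cre with 4-hydroxytamoxifen, after which the Cre was bred out, and Mertk-/-V3 mice lack exons 3 and 4, removed with CRISPR in C57BL/6NJ eggs. Both later lines have a mixed B6J and B6NJ background. Each mutant is 1 allele, so an effect of the allele and of the line's background cannot be told apart by that line alone. The comparisons ask whether these genes differ from B6 WT in each line, and whether Mertk-/-V1, the line with 129P2 DNA, differs from the mean of the newer lines.

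The RPE rests on Bruch's membrane, a thin sheet of extracellular matrix between the RPE and the capillaries of the choroid, in which basement membranes of collagen IV enclose layers of fibrillar collagen and a core of elastic fibres. RPE cells secrete many of its components and also the enzymes that turn them over. Metalloproteinases such as Mmp2 cut collagens, Timp3 is the matrix-bound inhibitor that holds such enzymes in check, and Htra1 is a secreted serine protease. In people, mutations in TIMP3 cause Sorsby fundus dystrophy and a mutation in EFEMP1 causes dominant drusen, and variants near HTRA1 are linked to age-related macular degeneration. MERTK, the receptor deleted in the mutants, is used by RPE cells to take up shed photoreceptor tips and by macrophages to take up dying cells.

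The libraries held 14137666 to 34124049 reads in RPE and 16629659 to 25653814 in BMDMs, recovered from the deposited values, which are counts divided by a size factor of the library and are called normalized counts here. Mertk itself in RPE was at 3202 ± 454 (SD, n = 6) in B6 WT, 1177 ± 295 (SD, n = 6) in the Mertk-/-V1 line, 4229 ± 945 (SD, n = 3) in Mertk-/-V2, and 852 ± 357 (SD, n = 3) for Mertk-/-V3 (normalized counts). A count over the whole gene does not test the loss of single exons, so it leaves the Mertk-/-V2 label unchecked. As to the RPE label, all 15 RPE markers passed the filter (a mean of at least 10 normalized counts), with summed levels of 287105 to 1067670. Rod, Müller glia, macrophage, stromal, endothelial, mural and Schwann cell markers passed it too, as did 4 of 7 B and T cell markers. In Mertk-/-V1 RPE 3 of the 10 macrophage markers were past the test (C1qa, C1qb and Fcgr1, named after their values were seen, higher by 1.04, 1.02 and 1.13 on the log2 scale) and 0 of every other marker list, and in the other RPE comparisons 0 of any list. Of the 18 libraries 3 stood apart: Mertk-/-V1 replicates 5 and 6 and Mertk-/-V3 replicate 1 had the lowest summed RPE markers (360136, 287105 and 389379, with 588632 to 1067670 in the others) and the highest summed rod markers (873792, 520161 and 413488, with 32311 to 342089 in the others). In BMDMs all 10 macrophage markers passed the filter, and the 10 stromal markers summed to at most 10.1 normalized counts. C1qa, a macrophage marker, fell in Mertk-/-V1 and Mertk-/-V3 BMDMs and Vwf, an endothelial one, rose in Mertk-/-V1 and Mertk-/-V2, both named after their values were seen. In bulk samples, fewer cells of a type and less RNA per cell cannot be told apart.

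In B6 WT RPE the collagen VIII chains and Timp3 led the group. Per kb of exon, the scale that allows genes to be compared, Col8a2 (a short-chain collagen that with Col8a1 forms the lattice of Bruch's and Descemet's membranes) was at 10417 ± 3091 normalized counts per kb (SD, n = 6) and Timp3 at 8919 ± 1303, and their ranges overlapped. Col8a1 followed at 5863 ± 864. Col18a1, the basement membrane collagen whose end fragment is endostatin, was at 3548 ± 261 and Efemp1 at 2113 ± 255. The next levels were 1093 ± 161 for Htra1 and 823 ± 87.8 for Col4a3 (a chain of the basement membrane collagen IV), which overlapped. Fbln5, which is needed for elastic fibre assembly, was at 414 ± 21.6, Mmp2 at 214 ± 30.7 and Sulf2, which removes 6-O-sulfate from heparan sulfate outside the cell, was last at 90.8 ± 21.2. Apart from the Col8a2 with Timp3 and the Htra1 with Col4a3 pair, neighbours in this order did not overlap between any of the 6 libraries, and the levels ran from 90.8 to 10417 per kb.

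In macrophages 5 of the 10 genes were near 0. In B6 WT BMDMs, Timp3, Efemp1 and Col8a2 had 0 reads in all 3 libraries, and Col4a3 and Htra1 had at most 2 reads in a library. A count of 0 allows up to 3 reads per library, by counting error only. Sulf2 had the highest level there, 539.8 ± 13.7 normalized counts per kb (SD, n = 3), ahead of Col18a1 at 73.2 ± 4.09, Mmp2 at 6.48 ± 1.92, Fbln5 at 2.46 ± 0.860 and Col8a1 at 1.46 ± 0.842. The order was thus turned round for Sulf2, last in RPE and first in BMDMs. The 2 tissues were scaled in separate tables, so the gap between tissues was not tested.

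**Figure D1:**
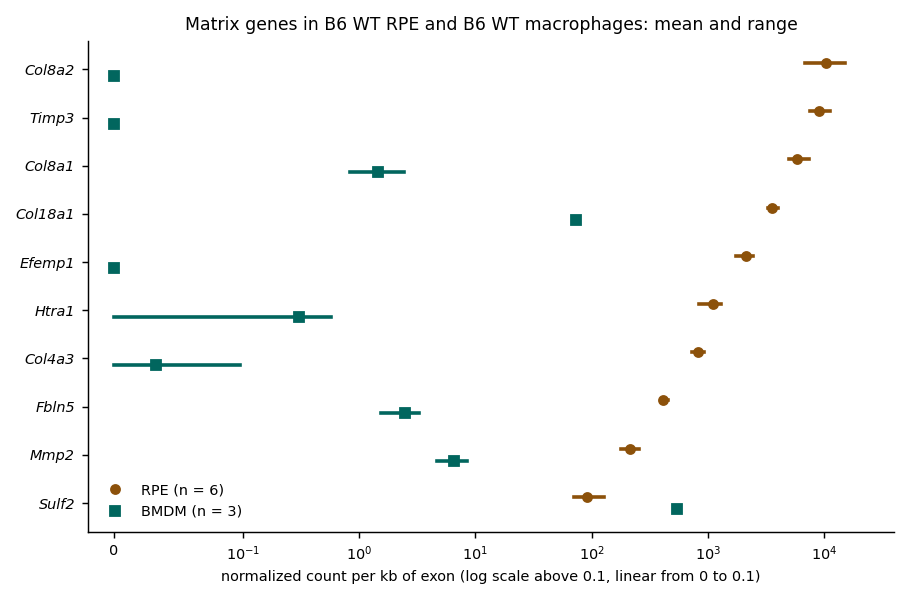
Normalized count per kb of exon (horizontal axis, log scale above 0.1) of the 10 matrix genes in B6 WT RPE (circles, 6 libraries) and B6 WT BMDMs (squares, 3 libraries), with points for means and lines for the range over libraries. Sulf2 is the lowest gene in RPE and the highest in BMDMs, where Timp3, Efemp1 and Col8a2 sit at 0; the tissues were scaled separately.

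Timp3, Col8a1 and Col8a2, which led in RPE and varied together over its libraries, and Sulf2, which varied against them, are shown by their start regions. Each window holds 250 bases before and 50 after a transcript start (RefSeq, GRCm38.p6), 5′ to 3′ on the gene's strand, in lower case with each GC box (GGGCGG on either strand, the letters bound by Sp1) in capitals, which may overlap.
Timp3 (chr10:86300162-86300461, plus strand): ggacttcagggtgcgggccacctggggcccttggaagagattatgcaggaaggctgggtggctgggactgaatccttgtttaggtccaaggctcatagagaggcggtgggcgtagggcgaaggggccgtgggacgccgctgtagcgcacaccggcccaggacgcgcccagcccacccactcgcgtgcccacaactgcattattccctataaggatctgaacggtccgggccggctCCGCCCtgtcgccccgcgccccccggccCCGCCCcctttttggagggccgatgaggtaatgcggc
Col8a1 (chr16:57754688-57754987, minus strand): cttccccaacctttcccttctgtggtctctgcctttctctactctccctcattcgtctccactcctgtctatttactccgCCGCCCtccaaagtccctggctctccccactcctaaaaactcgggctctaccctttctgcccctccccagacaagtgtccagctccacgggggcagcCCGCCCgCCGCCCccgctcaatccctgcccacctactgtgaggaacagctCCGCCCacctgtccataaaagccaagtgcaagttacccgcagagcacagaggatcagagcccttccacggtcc
Col8a2 (chr4:126286544-126286843, plus strand): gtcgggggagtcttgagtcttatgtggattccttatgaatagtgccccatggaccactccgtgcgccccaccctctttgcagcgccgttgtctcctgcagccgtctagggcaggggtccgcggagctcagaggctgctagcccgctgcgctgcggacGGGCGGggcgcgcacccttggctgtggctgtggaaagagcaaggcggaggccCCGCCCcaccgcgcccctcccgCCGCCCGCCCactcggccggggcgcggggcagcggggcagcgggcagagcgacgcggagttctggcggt
Sulf2 (chr2:166155634-166155933, minus strand): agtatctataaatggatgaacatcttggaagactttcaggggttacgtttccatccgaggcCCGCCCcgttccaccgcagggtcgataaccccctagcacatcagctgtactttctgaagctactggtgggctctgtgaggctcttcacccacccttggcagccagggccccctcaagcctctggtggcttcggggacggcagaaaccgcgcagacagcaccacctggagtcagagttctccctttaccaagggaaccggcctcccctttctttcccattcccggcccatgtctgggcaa
Windows were found for 8 of the 10 members (11 windows, not for Col4a3 or Mmp2). A GC box was in 8 of these 11 windows and in 35.7% of all 32851 windows. The windows shown were 58.0% to 71.7% G and C, with a median of 52.7% over all windows. Col8a1 and Col8a2 held 4 boxes each, Timp3 2 and the Sulf2 window shown 1, and the other Sulf2 window held 0. The letters CACGTG (the E-box) were in 7.15% of all windows and TAATCC (bound by OTX factors) in 7.06%, and neither was in a member's window. These are matches of letters and not sites.

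None of the 9 members tested in Mertk-/-V1 RPE passed the test, nor did any of the 10 in Mertk-/-V2 or of the 9 in Mertk-/-V3, where Col8a2 passed in other fits (its values are given with that gene). The test was limma on log2(normalized count + 1) with Benjamini-Hochberg adjustment over the 18832 genes that passed the filter, and a gene passed at an adjusted p under 0.05. By that rule 0.388% of all genes passed in Mertk-/-V1, 0.0690% in Mertk-/-V2, with 0.0690% for Mertk-/-V3. At those shares a count of 0 in so few genes is no result about the members. At an unadjusted p under 0.05 there was 1 member in Mertk-/-V1 (Mmp2; 6.81% of all genes), 0 in Mertk-/-V2 (5.47%) and 0 in Mertk-/-V3 (11.1%), and edgeR and DESeq2 on the recovered reads also called 0 members in each. Same-number libraries of B6 WT and Mertk-/-V1 deviated together, and with these 2 groups alone and the replicate number as a block, added after seeing the data, the Mertk-/-V1 count stayed at 0 (0.536% of all genes passed), with 3 members at an unadjusted p under 0.05 (Timp3, Col8a2 and Mmp2; 14.5% of all genes). No tested member had all libraries of a knockout apart from all B6 WT libraries, against 1.09% of all genes in Mertk-/-V1, 5.66% in Mertk-/-V2, with 4.32% for Mertk-/-V3. The 3 comparisons share the B6 WT libraries. The median log2 difference of the counted members was -0.32 in Mertk-/-V1, 0.017 in Mertk-/-V2 and, for Mertk-/-V3, -0.14, beside 0.017, 0.020 and -0.0076 over all genes. The 15 RPE markers had medians of -0.47, 0.13 and -0.34 in the same order, and their part in the members' differences was not tested. Without the 3 libraries lowest in RPE markers, the Mertk-/-V1 differences were -0.13 for Timp3, 0.029 for Col4a3, -0.023 for Col8a2 and -0.093 for Col18a1. These libraries are also the 3 lowest of 18 for each of these genes, so leaving them out had to raise the differences. The B6 WT libraries of the same numbers were kept. The values are thus a description only, and the cause was not tested.

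Among the collagens, Col8a1 and Col8a2 were the most abundant. Col8a1 held 38637 to 57265 (median 43739) normalized counts in the 6 B6 WT libraries and 19135 to 60929 (median 42121) in the 6 of Mertk-/-V1. Values of 59939, 42124 and 41537 were measured in Mertk-/-V2 and of 22687, 47333 and 65020 in Mertk-/-V3. The B6 WT range lay inside those of Mertk-/-V1 and Mertk-/-V3 and overlapped with Mertk-/-V2. The log2 differences from B6 WT were -0.32 (95% confidence interval -0.94 to 0.29, adjusted p = 0.874) in Mertk-/-V1, 0.051 (-0.70 to 0.80, adjusted p = 0.999) in Mertk-/-V2, with -0.14 (-0.90 to 0.61, adjusted p = 0.853) in Mertk-/-V3. Col8a2 held 30845 to 67342 (median 44974) normalized counts in the 6 B6 WT libraries and 13666 to 54108 (median 39130) in the 6 of Mertk-/-V1. In Mertk-/-V2 it was at 52725, 39659 and 38600, and in Mertk-/-V3 at 16163, 33831 and 48639. Within B6 WT, replicates 1 to 3 (57890 ± 9174) lay above replicates 4 to 6 (35635 ± 5059). Its differences were -0.50 (95% confidence interval -1.22 to 0.22, adjusted p = 0.829) in Mertk-/-V1, -0.061 (-0.94 to 0.82, adjusted p = 0.999) in Mertk-/-V2, with -0.59 (-1.48 to 0.29, adjusted p = 0.545) in Mertk-/-V3. The Mertk-/-V3 difference passed with the replicate block (-1.05, adjusted p = 0.0255 in limma), a fit in which 29.8% of all genes did, and with array quality weights (-0.60, adjusted p = 0.00325), where 66.9% did and the fit did not converge. Mertk-/-V3 has replicates 1 to 3 only, the numbers at which B6 WT was high, and the part of this was not tested. In B6 WT, Timp3 (means of 80058.5 and 65207), Col4a3 (8958 and 7444), Col8a1 (50858 and 40992) and Mmp2 (737 and 704) were also higher in replicates 1 to 3. Efemp1, Fbln5, Col18a1, Htra1 and Sulf2 were lower in them. In Mertk-/-V1, Timp3 (71481 and 36471) and Col8a1 (51836 and 27122) were higher too, with both libraries low in RPE markers in the other set.

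Col4a3 held 7216 to 9199 (median 8114) normalized counts in the 6 B6 WT libraries and 2728 to 11322 (median 7243) in the 6 of Mertk-/-V1. The 3 Mertk-/-V2 libraries held 9831, 6749 and 6658 and those of Mertk-/-V3 3502, 8440 and 11787. Both low values of Mertk-/-V1 and the low value of Mertk-/-V3 came from the 3 libraries poor in RPE markers. The differences from B6 WT were -0.44 (95% confidence interval -1.12 to 0.24, adjusted p = 0.843) in Mertk-/-V1, -0.10 (-0.94 to 0.74, adjusted p = 0.999) in Mertk-/-V2, with -0.21 (-1.05 to 0.62, adjusted p = 0.807) in Mertk-/-V3. Col18a1 held 22953 to 27878 (median 24457) normalized counts in the 6 B6 WT libraries and 8418 to 25267 (median 21662) in the 6 of Mertk-/-V1. Values of 23089, 27919 and 23003 were measured in Mertk-/-V2 and of 16766, 24491 and 30804 in Mertk-/-V3. In Mertk-/-V1, 2 of 6 libraries lay far below B6 WT, at 8418 and 13515, and 3 others lay inside its range. The Col18a1 differences were -0.47 (95% confidence interval -0.96 to 0.026, adjusted p = 0.742) in Mertk-/-V1, -0.017 (-0.62 to 0.59, adjusted p = 0.999) in Mertk-/-V2, with -0.093 (-0.70 to 0.51, adjusted p = 0.882) in Mertk-/-V3.

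The elastic fibre genes differed from each other in spread. Efemp1 held 3573 to 4969 (median 4168) normalized counts in the 6 B6 WT libraries and 2238 to 5286 (median 4740) in the 6 of Mertk-/-V1. In Mertk-/-V2 it was at 2941, 5353 and 4433, and in Mertk-/-V3 at 4518, 3235 and 3901. Its lowest library was Mertk-/-V1 replicate 5 and its highest was in Mertk-/-V2, and all 4 genotypes overlapped. The differences for Efemp1, which encodes fibulin-3, were -0.069 (95% confidence interval -0.49 to 0.35, adjusted p = 0.955) in Mertk-/-V1, -0.055 (-0.57 to 0.45, adjusted p = 0.999) in Mertk-/-V2, with -0.15 (-0.66 to 0.36, adjusted p = 0.776) in Mertk-/-V3. Fbln5 held 2701 to 3099 (median 2816) normalized counts in the 6 B6 WT libraries and 1430 to 3166 (median 2720) in the 6 of Mertk-/-V1. The 3 Mertk-/-V2 libraries held 3472, 2982 and 2614 and those of Mertk-/-V3 1642, 2887 and 3702. B6 WT was tight and the 3 libraries poor in RPE markers were the 3 lowest of all 18. The Fbln5 differences were -0.28 (95% confidence interval -0.71 to 0.15, adjusted p = 0.845) in Mertk-/-V1, 0.071 (-0.46 to 0.60, adjusted p = 0.999) in Mertk-/-V2, with -0.14 (-0.67 to 0.39, adjusted p = 0.806) in Mertk-/-V3.

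**Figure D2:**
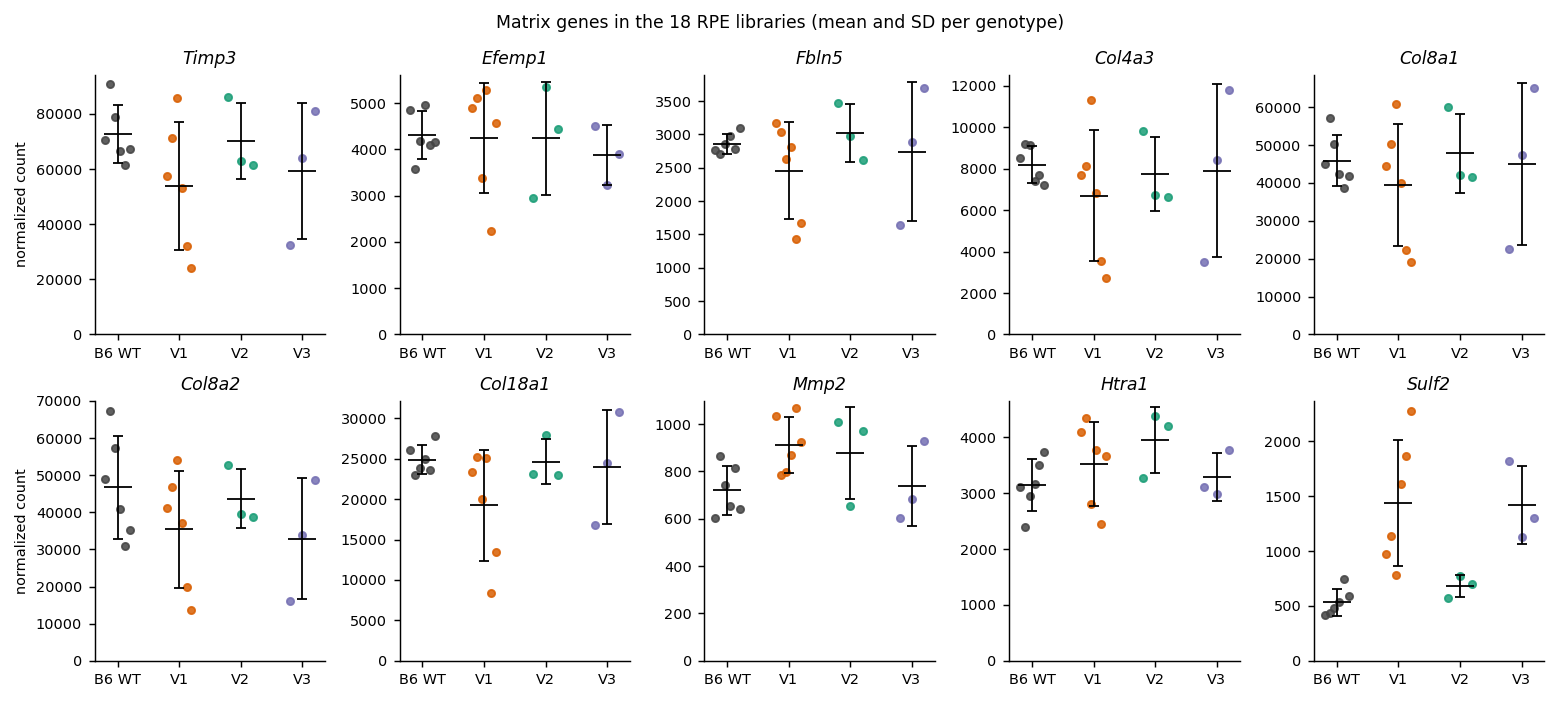
Normalized counts (vertical axes, from 0) of the 10 matrix genes in RPE, 1 point per library in order of replicate, with the mean and SD of each genotype in black. Timp3 and the collagen genes are low in replicates 5 and 6 of Mertk-/-V1 (V1) and in replicate 1 of Mertk-/-V3 (V3), and Sulf2 is highest in these libraries.

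On the side of matrix breakdown, Timp3 held 61593 to 90920 (median 68895) normalized counts in the 6 B6 WT libraries and 24086 to 85673 (median 55244) in the 6 of Mertk-/-V1. Values of 86169, 63068 and 61442 were measured in Mertk-/-V2 and of 32535, 64165 and 81214 in Mertk-/-V3. No library of B6 WT was below 61593, while the 3 libraries poor in RPE markers held 32213, 24086 and 32535. The Timp3 differences were -0.55 (95% confidence interval -1.16 to 0.068, adjusted p = 0.764) in Mertk-/-V1, -0.054 (-0.81 to 0.70, adjusted p = 0.999) in Mertk-/-V2, with -0.38 (-1.13 to 0.37, adjusted p = 0.634) in Mertk-/-V3. Mmp2 held 603 to 863 (median 699) normalized counts in the 6 B6 WT libraries and 783 to 1067 (median 896) in the 6 of Mertk-/-V1. In Mertk-/-V2 it was at 1010, 653 and 969, and in Mertk-/-V3 at 602, 682 and 930.1. The Mertk-/-V1 values lay towards the upper end of B6 WT and 4 of 6 were above its highest library. The difference was 0.34 in Mertk-/-V1 (95% confidence interval 0.054 to 0.63), with an unadjusted p of 0.0229 and an adjusted p of 0.630 in limma. In Mertk-/-V2 it was 0.27 (-0.084 to 0.63, adjusted p = 0.954) and in Mertk-/-V3 0.023 (-0.33 to 0.38, adjusted p = 0.949). Stromal fibroblasts also make Mmp2. Stromal markers summed to 24436 to 36496 in B6 WT and 31710 to 59950 in Mertk-/-V1, with the log2 difference of all 10 above 0 and 0 past the test. All 10 endothelial and all 10 rod markers were above 0 as well, with medians of 0.28 and 0.31 beside 0.36 for the stromal ones. Of the mural markers 2 of 9 were above 0 and of the Schwann cell markers 3 of 8. The part of stromal or other cells in the Mmp2 difference was not tested.

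Htra1 held 2401 to 3733 (median 3141) normalized counts in the 6 B6 WT libraries and 2444 to 4353 (median 3720) in the 6 of Mertk-/-V1. The 3 Mertk-/-V2 libraries held 3275, 4382 and 4205 and those of Mertk-/-V3 3111, 2992 and 3780. All 4 genotypes overlapped. The Htra1 differences were 0.15 (95% confidence interval -0.16 to 0.45, adjusted p = 0.884) in Mertk-/-V1, 0.33 (-0.043 to 0.71, adjusted p = 0.933) in Mertk-/-V2, with 0.072 (-0.30 to 0.45, adjusted p = 0.854) in Mertk-/-V3. Between Mertk-/-V1 and the mean of both newer lines, 0 of 9 members passed (0.207% of all genes did), with 0 at an unadjusted p under 0.05 (9.56% of all genes), and edgeR and DESeq2 called 0. The largest of these 9 differences was Col18a1 at -0.41 (95% confidence interval -0.91 to 0.081, adjusted p = 0.578).

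**Figure D3:**
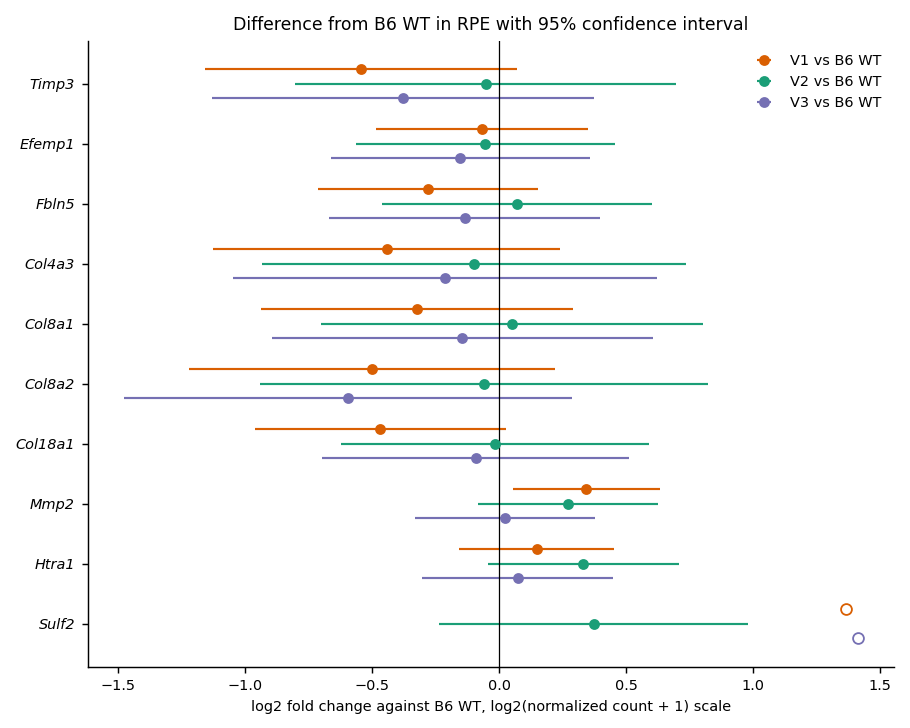
Log2 fold change of each matrix gene against B6 WT in RPE (horizontal axis, log2(normalized count + 1) scale) for each of the 3 knockout lines, with 95% confidence intervals from limma. Open circles mark Sulf2 in Mertk-/-V1 and Mertk-/-V3, which chose that gene and have no interval; of the filled points, only Mmp2 in Mertk-/-V1 has an interval that leaves out 0.

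Sulf2 was the member chosen for its RPE level, and its values are given as a description. Sulf2 held 413 to 748 (median 506) normalized counts in the 6 B6 WT libraries and 785 to 2277 (median 1374) in the 6 of Mertk-/-V1. Values of 569.6, 771 and 703 were measured in Mertk-/-V2 and of 1821, 1132 and 1303 in Mertk-/-V3. All Mertk-/-V1 and Mertk-/-V3 libraries lay above the highest B6 WT library, which is the difference that chose the gene, and the Mertk-/-V2 libraries overlapped with B6 WT and lay below every Mertk-/-V1 and Mertk-/-V3 library. Sulf2 was at 964 ± 175 in Mertk-/-V1 and 441 ± 33.4 in B6 WT for replicates 1 to 3. For replicates 4 to 6 it was at 1919 ± 335 and 625.4 ± 110.4 (SD, n = 3 each). Both sets are parts of the values that chose the gene. The newer lines have replicates 1 to 3 only. Against their mean, Mertk-/-V1 was at -0.025 on the log2 scale with its replicates 1 to 3. With its replicates 4 to 6 it was at 0.97, where set and line cannot be told apart. The Mertk-/-V2 difference from B6 WT, which the choice did not use, was 0.37 (95% confidence interval -0.24 to 0.98, adjusted p = 0.962 in limma).

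The 3 highest Sulf2 libraries were the 3 poorest in RPE markers and richest in rod markers (2277, 1867 and 1821 normalized counts). Without them the Sulf2 difference from B6 WT was 1.06 in Mertk-/-V1 and 1.22 in Mertk-/-V3 on the log2 scale, compared with 1.36 and 1.41 with them. Both contrasts chose the gene, so these values are a description only. Sulf2 is also the most abundant member in BMDMs. In RPE the 10 macrophage markers, taken gene by gene, had a median log2 difference from B6 WT of 0.60 in Mertk-/-V1 (0.017 over all genes), with 9 of 10 above 0, 7 at an unadjusted p under 0.05, 5 with all libraries apart and 3 past the test (0 with the block of B6 WT and Mertk-/-V1 alone). Their median was 0.61 in Mertk-/-V2 (6 at an unadjusted p under 0.05, 0 past the test), where Sulf2 overlapped with B6 WT, and 0.23 for Mertk-/-V3 (3 and 0). Summed, which weights them by abundance, they came to 7909 to 13228 in B6 WT, 6835 to 12166 in Mertk-/-V1, 9852 to 11962 in Mertk-/-V2, with 6707 to 12461 for Mertk-/-V3. Most of each sum was Csf1r, with a mean of 7173 normalized counts over the RPE libraries, followed by Lyz2 at 830. The sums thus say little about the other macrophage markers. The part of rod or macrophage RNA in the Sulf2 level was not tested. Across the 18 RPE libraries the genes with the pattern most like Sulf2 were Kcnab1 (Pearson's r 0.939), Cfi (0.906) and Mpeg1 (0.898), a gene known from macrophages, and with the 3 libraries left out these were 0.900, 0.883 and 0.888 over 15.

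Across the RPE libraries 4 members tracked together, among them Timp3, Col8a1 and Col8a2, whose start regions are printed above. Timp3, Col4a3, Col8a1 and Col8a2 had pairwise Pearson's r from 0.930 to 0.985 over the 18 libraries on the log2 scale, values that share the libraries and their scaling. Without the 3 libraries poor in RPE markers they still had r from 0.649 to 0.926 over 15. Sulf2 had r from -0.775 (Timp3) to -0.644 (Col8a1) with these 4, and from -0.457 to -0.033 without the 3 libraries. For Fbln5 and Col18a1 the likeness to Timp3 rested on the 3 libraries: r went from 0.856 to 0.181 for Fbln5 and from 0.750 to -0.175 for Col18a1. Efemp1 and Htra1 were alike in both sets (0.687 and 0.606). Mmp2 was like no other member: its highest r was 0.294 over 18 (Sulf2) and 0.336 over 15 (Col8a1, with 0.329 for Sulf2). Its r farthest from 0 over 18 was -0.416, with Efemp1.

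These 4 genes tracked the RPE markers. Timp3 spread 3.77-fold over the 18 libraries, with a coefficient of variation of 29.7%, but per 1000 counts of the 15 summed RPE markers it spread only 1.49-fold, with 9.35%. The same step took the coefficient of variation from 29.5% to 13.043% for Col8a1, from 35.4% to 15.9% for Col8a2 and from 32.4% to 15.8% for Col4a3. It left Fbln5 (21.9% and 20.3%) and Col18a1 (23.4% and 23.1%) about as they were, and it widened Efemp1 (20.5% to 50.2%), Htra1 (17.8% to 47.008%) and Mmp2 (18.8% to 57.7%).

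Taken per 1000 RPE marker counts, a measure added after the data were seen, Col8a1 was at 48.9 to 57.2 in B6 WT, 62.1 to 76.4 in the Mertk-/-V1 line, 48.9 to 56.1 in Mertk-/-V2, and 58.3 to 63.5 for Mertk-/-V3, so that all libraries of Mertk-/-V1 and Mertk-/-V3 lay above all those of B6 WT. Of all genes tested, 7.32% stood apart from B6 WT in this ratio in Mertk-/-V1, 2.29% in Mertk-/-V2, with 2.51% for Mertk-/-V3. At the Mertk-/-V1 share, Col8a1 alone apart among the members is no result about them. Timp3 on this scale was at 76.9 to 91.1 in B6 WT, 83.9 to 107 in the Mertk-/-V1 line, 72.3 to 80.7 in Mertk-/-V2, and 79.3 to 83.6 for Mertk-/-V3, and the groups overlapped. Of the other members only Sulf2 stood apart, in Mertk-/-V3 (a contrast that chose it), and no member did in Mertk-/-V2. A ratio shows unequal change and not which of its parts moved, and it was not tested.

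**Figure D4:**
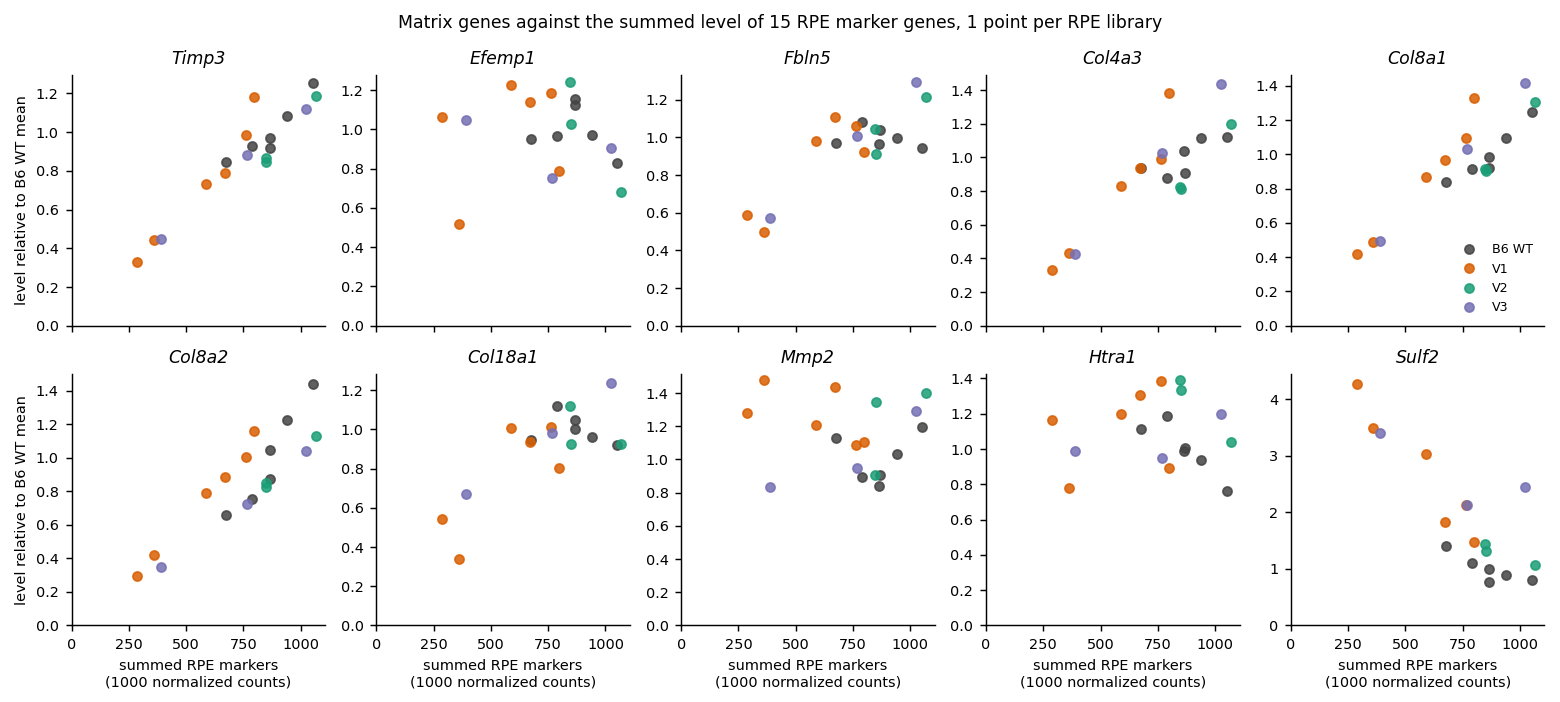
Level of each matrix gene relative to its B6 WT mean (vertical axes) against the summed normalized counts of 15 RPE marker genes (horizontal axes, units of 1000), 1 point per RPE library. Timp3, Col4a3, Col8a1 and Col8a2 rise with the markers. Col8a1 lies higher per marker count in Mertk-/-V1 and Mertk-/-V3 than in B6 WT, where 7.32% and 2.51% of all genes stood apart in this ratio. Sulf2 runs the other way, and Efemp1, Mmp2 and Htra1 show no such slope.

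The genes most like each member were named by the same measure. Timp3 was closest to Elovl7 (0.993), Abhd2 (0.989) and Slc39a12 (0.987), and Col4a3 to Col4a4, the chain with which it is assembled (0.990), Col8a1 (0.985) and Itgb8 (0.982). Col8a1 was closest to Efcab14 (0.993), Tbc1d1 (0.990) and Col4a3, and Col8a2 to Mansc1 (0.986), the RPE lactate transporter Slc16a8 (0.984) and Fgfr2 (0.981). Each of these r, for Timp3, Col4a3, Col8a1 and Col8a2, was at least 0.904 without the 3 libraries. Col18a1 was closest to Fbn1 (0.979), which encodes fibrillin-1, then Ntrk2 (0.960) and Fam107a (0.957), and Fbln5 to Fgfr1 (0.964), Ano6 (0.959) and Gli2 (0.958). Without the 3 libraries these r were 0.860, 0.775 and 0.739 for Col18a1 and to 0.815, 0.870 and 0.694 for Fbln5. Mmp2 was closest to the stromal and endothelial gene Cd34 (0.856) and to the fibrillar collagen genes Col1a2 (0.816) and Col3a1 (0.798), with 0.907, 0.730 and 0.727 over the 15 libraries. Htra1 was closest to Tsc22d1 (0.959), Slc27a6 (0.924) and Gm36169 (0.917), and Efemp1 to Tnfrsf21 (0.896), Rasef (0.888) and Arhgef19 (0.882), and over the 15 libraries these were 0.974, 0.931 and 0.937 for Htra1 and 0.908, 0.903 and 0.851 for Efemp1.

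On GRCm38 (GENCODE mouse release 21) the members lie apart from each other, as protein-coding genes, with Timp3 (chromosome 10, 86300372 to 86349506, plus strand) and Col18a1 (chromosome 10, 77052178 to 77166548, minus strand) on one chromosome. Sulf2 (chromosome 2, 166073089 to 166155663, minus strand) is on the chromosome of Mertk (chromosome 2, 128698956 to 128802894, plus strand). Timp3 shares 1733 of its 8144 exon bases with Syn3 on the other strand, Col4a3 shares 563 with C430014B12Rik and Sulf2 shares 154 of 5871 with Ncoa3. The strand setting of the counting is not given in the sources used here, so reads of those stretches cannot be assigned to one gene with certainty.

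In BMDMs 5 members passed the filter on low values: Sulf2, Col18a1, Fbln5, Mmp2 and Col8a1. Sulf2 in Mertk-/-V1 was the 1 member that passed the test, where 7.07% of all 13420 genes did. Its B6 WT libraries held 3160, 3254 and 3094 normalized counts and its Mertk-/-V1 libraries 3751, 3838 and 3638, with no overlap, as in 30.9% of all genes. The rise was small, with a log2 fold change of 0.24 (SE 0.048, adjusted p = 0.0114 in limma), and the adjusted p became 0.0553 without B6 WT replicate 1 and 0.0512 without Mertk-/-V1 replicate 2. It is below the fold threshold of 1.25 (log2), which 0.425% of all genes passed together with the test.

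Sulf2 held 3340, 3382 and 3699 in Mertk-/-V2 BMDMs and 3271, 3473 and 3189 in Mertk-/-V3. All 3 Mertk-/-V2 libraries were above B6 WT, and Mertk-/-V3 overlapped with it. Neither passed the test, with log2 fold changes of 0.13 (95% confidence interval 0.027 to 0.23, adjusted p = 0.135) and 0.063 (-0.041 to 0.17, adjusted p = 0.565). Mertk-/-V1 against the mean of the other two gave 0.14 (SE 0.042, adjusted p = 0.185), and 0.0291 without Mertk-/-V2 replicate 3. Mertk-/-V3, a line with a high Sulf2 level in RPE, thus overlapped with B6 WT in BMDMs. The difference between the tissues was not tested.

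Fbln5 was low in BMDMs but every Mertk-/-V1 and Mertk-/-V3 library was above B6 WT. It held 10.7, 17.9 and 22.5 in B6 WT, 31.7, 27.994 and 31.5 in the Mertk-/-V1 line, 30.3, 38.3 and 16.1 in Mertk-/-V2, and 30.6, 33.047 and 28.1 for Mertk-/-V3 (normalized counts). The log2 fold changes of 0.86 (95% confidence interval 0.17 to 1.54, adjusted p = 0.121), 0.67 (-0.014 to 1.36, adjusted p = 0.244) and 0.86 (0.18 to 1.55, adjusted p = 0.206) did not pass. All libraries were apart from B6 WT in 25.4% of all genes in Mertk-/-V3 and 22.7% in Mertk-/-V2, where Sulf2 was the 1 such member.

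Col18a1 held 509.7, 544 and 487 in B6 WT, 343, 453 and 516 in the Mertk-/-V1 line, 406, 344 and 544 in Mertk-/-V2, and 481, 571 and 562 for Mertk-/-V3 (normalized counts), and all genotypes overlapped. Mmp2 held 21.4, 28.5 and 15.6 in B6 WT, 9.40, 17.996 and 20.2 in the Mertk-/-V1 line, 8.49, 13.1 and 34.2 in Mertk-/-V2, and 17.5, 6.40 and 8.03 for Mertk-/-V3. Col8a1 held 18.9, 6.52 and 8.79 in B6 WT, 24.7, 24.995 and 3.37 in the Mertk-/-V1 line, 10.9, 12.1 and 13.3 in Mertk-/-V2, and 38.2, 27.7 and 4.02 for Mertk-/-V3. Mmp2 and Col8a1 scattered widely within a genotype. The Col18a1 differences were -0.25, -0.28 and 0.063 (adjusted p = 0.371, 0.336 and 0.885), and the largest of the rest was Mmp2 in Mertk-/-V3 at -1.05 (95% confidence interval -2.11 to 0.0041, adjusted p = 0.317). At an unadjusted p under 0.05 there were 2 of the 5 members in Mertk-/-V1 (23.6% of all genes), 1 in Mertk-/-V2 (21.4%) and 1 in Mertk-/-V3 (15.9%). In Mertk-/-V2 and Mertk-/-V3, 0 members passed, where 4.61% and 1.17% of all genes did, and against the mean of the other two 0 passed (0.991%), with 1, Sulf2, at an unadjusted p under 0.05 (11.8% of all genes). edgeR and DESeq2 also called 1 member in Mertk-/-V1 and 0 in the other comparisons.

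**Figure D5:**
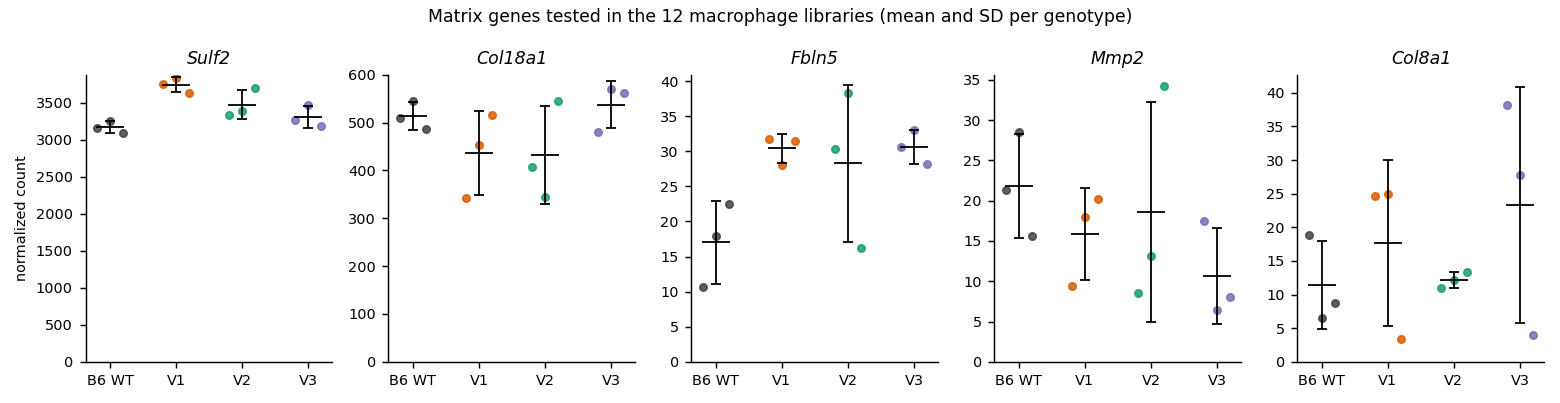
Normalized counts (vertical axes, from 0) of the 5 matrix genes that passed the filter in BMDMs, 1 point per library, with the mean and SD of the 3 libraries of each genotype. Sulf2 is higher in all Mertk-/-V1 (V1) libraries than in B6 WT by about 1.18-fold, and Fbln5 in B6 WT stays at or below 22.5, while Mmp2 and Col8a1 scatter within each genotype.

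The wider matrix pathway, in lists for basement membrane, elastic fibres, matrix proteases, protease inhibitors, heparan sulfate and integrins, was measured as well. In RPE 23 of 23 basement membrane, 22 of 22 elastic fibre, 30 of 34 protease, 9 of 10 inhibitor, 23 of 23 heparan sulfate and 12 of 12 integrin genes were tested. By limma 0 passed in any of the 4 RPE comparisons, where 0.0690% to 0.388% of all genes did, so this is no result about the lists. At an unadjusted p under 0.05 a list held 0 to 5 genes, beside 5.47% to 11.1% of all genes. The block of B6 WT and Mertk-/-V1 alone called 1 of the 119 in Mertk-/-V1 (A2m, a protease inhibitor, higher, named after its values were seen). In that fit 0.536% of all genes passed. In Mertk-/-V1 the median log2 differences of the lists were -0.015, -0.084, 0.075, -0.041, 0.017 and -0.15, with 0.017 over all genes. Of their genes 0, 1, 5, 2, 0 and 1 were at an unadjusted p under 0.05, as were 6.81% of all genes.

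In Mertk-/-V1 BMDMs 12 of 64 pathway genes passed, where 7.07% of all genes did. Of 18 matrix proteases tested, 5 rose and 1 fell, and 3 of 16 heparan sulfate genes rose, 1 of 6 elastic fibre genes rose, 1 of 8 integrin genes rose and 1 fell, while 0 of 9 basement membrane and 0 of 7 inhibitor genes passed. The median log2 difference was 0.076 for the proteases and 0.14 for the heparan sulfate genes, with -0.0047 over all genes. These were Mmp12, Adamts1, Mmp9, Mmp13 and Adamts10, with Adam15 lower, then Sdc2, Ndst2 and Ext1, Ltbp3, and Itgb3 with Itga6 lower, of which all but the first 3 by size are named after their values were seen. The largest change was in Sdc2, a heparan sulfate proteoglycan of the cell surface, with 22.1 ± 7.21 against 3.32 ± 2.87 normalized counts (SD), a log2 fold change of 2.58 (SE 0.61, adjusted p = 0.0227). Adamts1, a protease of proteoglycans, had 24.993 ± 6.61 against 7.96 ± 2.47 normalized counts (SD), a log2 fold change of 1.54 (SE 0.35, adjusted p = 0.0194). Mmp12, macrophage elastase, had 1893 ± 452 against 752 ± 166 normalized counts (SD), a log2 fold change of 1.32 (SE 0.28, adjusted p = 0.0144). Sdc2 and Adamts1 were at low counts. In Mertk-/-V2, where 4.61% of all genes passed, 3 of the 64 did, and 1 basement membrane and 2 heparan sulfate genes rose. Col4a5, a collagen IV chain, had 257 ± 54.4 against 158 ± 16.029 normalized counts (SD), a log2 fold change of 0.69 (SE 0.15, adjusted p = 0.0252). The heparan sulfate genes were the sulfotransferases Ndst2 (0.23, adjusted p = 0.0147) and Ndst1 (0.21, adjusted p = 0.0203).

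In Mertk-/-V3 BMDMs 4 of the 64 passed (1.17% of all genes did). The gelatinase Mmp9 rose most, with 324 ± 2.9967 against 101 ± 41.3 normalized counts (SD), a log2 fold change of 1.75 (SE 0.28, adjusted p = 0.0102). Col4a5 also rose, with 271 ± 41.004 against 158 ± 16.029 normalized counts (SD), a log2 fold change of 0.77 (SE 0.15, adjusted p = 0.0315). The integrin Itgb3 fell, with 355 ± 34.7 against 483 ± 9.91 normalized counts (SD), a log2 fold change of -0.45 (SE 0.083, adjusted p = 0.0224). Ndst2, named after its values were seen, which adds sulfate to heparan sulfate chains, also rose, by 0.21 (log2, adjusted p = 0.0404 in limma). Against the mean of the other two lines 2 of the 64 passed (0.991% of all genes did): Mertk-/-V1 BMDMs had more Mmp12, with 1893 ± 452 against 822 ± 288 normalized counts (SD), a log2 fold change of 1.24 (SE 0.24, adjusted p = 0.0218). They also had more Itgb3, with 603 ± 23.3 against 396 ± 56.3 normalized counts (SD), a log2 fold change of 0.62 (SE 0.072, adjusted p = 0.000322). Mmp2, the gelatinase among the members, passed in none of these comparisons.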

How the data were processed

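RNA was measured in RPE and BMDM libraries of 4 genotypes (paired-end, 150 bp). Per the study's methods, the authors used btrim for trimming, STAR for mapping to GRCm38 and DESeq2; the counter, the annotation release and the versions are not given in the sources used here. The deposited signal is 1 table per tissue of gene counts divided by a DESeq2 size factor of each library, for 55573 genes. Dividing by the smallest value above 0 in a library gave whole reads for 100% of values (tolerance 0.001). Intervals and floors of 3 reads cover counting error only.

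Samples were grouped by tissue and genotype in the labels. The newer lines have replicates 1 to 3 only, so they kept these where replicates 4 to 6 of the other groups were used. limma 3.58.1 (lmFit, eBayes with trend, R 4.3.3) was run on log2(value + 1), a pseudocount of 1, with 4 genotypes of a tissue in one model, for genes with a mean of at least 10 (18832 in RPE, 13420 in BMDMs), with Benjamini-Hochberg adjustment. Fold changes on this scale understate those of low genes. The libraries are labelled as biological replicates, and in every pair of a group the counts differed beyond sampling noise (chi-square). Alternatives were a pseudocount of 5, no filter, only the groups compared, array quality weights, edgeR 4.0.16 and DESeq2 1.42.0 on recovered reads, a replicate block, replicates 1 to 3 or 4 to 6 and their set as a term, each library left out, and the fold threshold of 1.25; leaving out the 3 RPE libraries lowest in RPE markers was added after the data were seen. In RPE all 6 same-number pairs of B6 WT and Mertk-/-V1 had deviations from their group means correlated above 0.1 (0.12 to 0.72), so the replicate number of the labels was taken to pair these 2 groups, though the labels do not say what it marks; a block with these groups alone was also added after the data were seen. The tests were checked on simulated data for Mertk-/-V1 against B6 WT. In RPE limma recovered 170 of 200 changed genes with 5 false calls, edgeR 172 with 5 and DESeq2 182 with 32. The changes put in were of 2 on the log2 scale, larger than any member's difference in RPE. These counts thus do not show how often a change of the members' size would be found. The simulation held no shared shift of libraries such as that of the 3 low in RPE markers.

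The members, the pathway and marker lists and the tests were chosen with earlier results of these data known. The text names the 10 members, the 3 genes of all pathway lists with the largest change past the test in a comparison, and the 3 genes most correlated with a member. Positions are from GENCODE M21 and start regions from RefSeq (GRCm38.p6). Python 3.11.15 (pandas 2.3.3, matplotlib 3.10.9) drew the figures.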

Additional observations from a re-analysis of the deposited data

How the results depend on the processing

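No change of setting made a tested RPE member pass except in Mertk-/-V3, where 0 passed as reported. There, 2 passed with array quality weights (Efemp1, -0.38, adjusted p = 0.0108, and Col8a2, -0.60, adjusted p = 0.00325), whose RPE fit did not converge and called 12592 of 18832 genes, and 1 with the replicate block (Col8a2, -1.05, adjusted p = 0.0255), which called 5619, against 13 as reported. Without the 3 libraries lowest in RPE markers, an alternative chosen after seeing the data, 0 passed in each RPE comparison. In BMDMs, the count of 1 in Mertk-/-V1 became 2 with array quality weights (Fbln5, 0.91, adjusted p = 0.0237) and 0 with the fold threshold, and it ran from 0 to 1 as single libraries were left out. The count of 0 in Mertk-/-V3 became 2 with array quality weights (Fbln5, 0.90, adjusted p = 0.0302, and Mmp2, -1.38, adjusted p = 0.0265). For Mertk-/-V1 against both newer lines it ran from 0 to 1 as single libraries were left out. The cause was not tested. Sulf2 in RPE was not tested. It was at 0.97 in that contrast with Mertk-/-V1 replicates 4 to 6 against replicates 1 to 3 of the newer lines.

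Replicate numbers were taken to pair B6 WT with Mertk-/-V1 in RPE. In every other pair of groups at most 2 of 3 same-number pairs had deviations correlated above 0.1 (from -0.46 to 0.59 in RPE and from -0.30 to 0.36 in BMDMs), so those libraries share only a number. Over all 4 genotypes, 3 of 18 RPE and 5 of 12 BMDM libraries were closest to a library of their own number. That count includes B6 WT and Mertk-/-V1 in RPE, so their pairing by number is not certain either. Apart from Col8a2 above, the replicate block left each count of members past the test as it was, also with B6 WT and Mertk-/-V1 alone, an alternative chosen after seeing the data. Over all genes the block took the RPE calls from 73 to 131 in Mertk-/-V1 (101 with those 2 groups), from 13 to 706 in Mertk-/-V2 and from 39 to 2329 against both newer lines. In those comparisons and Mertk-/-V3 it called 0, 10, 12 and 19 of 119 pathway genes, all 0 as reported. Over all genes it called 0.696%, 3.75%, 12.4% and 29.8% there. In BMDMs it took the pathway calls from 12 to 8 in Mertk-/-V1, from 3 to 2 in Mertk-/-V2, from 4 to 2 in Mertk-/-V3 and left 2 against both newer lines. Over all BMDM genes tested it called 4.21%, 2.27%, 0.574% and 0.864% in the same order.

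Changes of sign occurred in differences that passed neither as reported nor under the alternative, or were not tested (Sulf2 in RPE). With array quality weights, the log2 difference changed sign to the value given for Efemp1 (0.078) in RPE for Mertk-/-V1, for Efemp1 (0.064), Col8a1 (-0.065) and Col18a1 (0.070) in RPE for Mertk-/-V2, for Fbln5 (0.021), Col18a1 (0.0068) and Mmp2 (-0.091) in RPE for Mertk-/-V3, for Col8a2 (0.14) and Htra1 (0.081) in RPE for the contrast of Mertk-/-V1 with both newer lines, for Fbln5 (-0.0016) in BMDMs for the contrast of Mertk-/-V1 with both newer lines. With replicates 1 to 3 alone, the log2 difference changed sign to the value given for Efemp1 (0.078), Fbln5 (0.083) and Col8a1 (0.022) in RPE for Mertk-/-V1, for Col8a1 (-0.10) and Col18a1 (0.016) in RPE for Mertk-/-V2, for Mmp2 (-0.0061) in RPE for Mertk-/-V3, for Timp3 (0.19), Fbln5 (0.071), Col4a3 (0.28), Col8a1 (0.22), Col8a2 (0.39), Htra1 (0.040) and Sulf2 (-0.025) in RPE for the contrast of Mertk-/-V1 with both newer lines. When B6 WT and Mertk-/-V1 in RPE were cut down to replicates 4 to 6, Htra1 changed sign for Mertk-/-V1 (-0.10). The newer lines kept replicates 1 to 3 there, so set and line cannot be told apart in contrasts that include them. In those contrasts, Timp3 (0.091), Col4a3 (0.033) and Col8a2 (0.29) changed sign for Mertk-/-V2. Col8a1 (0.0078) and Htra1 (-0.080) did so for Mertk-/-V3, and Efemp1 (-0.074) for Mertk-/-V1 against both newer lines. Without the 3 libraries lowest in RPE markers, the log2 difference changed sign to the value given for Efemp1 (0.11), Fbln5 (0.022), Col4a3 (0.029) and Col8a1 (0.083) in RPE for Mertk-/-V1, for Timp3 (0.0032), Fbln5 (0.19), Col4a3 (0.29), Col8a1 (0.29) and Col18a1 (0.14) in RPE for Mertk-/-V3, for Col8a2 (0.084) and Htra1 (0.030) in RPE for the contrast of Mertk-/-V1 with both newer lines. With the replicate block, the log2 difference changed sign to the value given for Fbln5 (-0.065) and Col8a1 (-0.28) in RPE for Mertk-/-V2, for Timp3 (0.0017), Col4a3 (0.065), Col8a1 (0.049) and Col8a2 (0.28) in RPE for the contrast of Mertk-/-V1 with both newer lines. With edgeR on recovered reads, the log2 difference changed sign to the value given for Col8a1 (0.10) in BMDMs for the contrast of Mertk-/-V1 with both newer lines. With DESeq2 on recovered reads, the log2 difference changed sign to the value given for Col8a1 (0.082) in BMDMs for the contrast of Mertk-/-V1 with both newer lines. As single libraries were left out, sign changes also occurred, with no adjusted p past the threshold. In BMDMs the range for the contrast of Mertk-/-V1 with both newer lines was -0.27 to 0.021 for Col18a1, -0.55 to 0.76 for Col8a1 and -0.085 to 0.21 for Fbln5. In RPE the range for Mertk-/-V2 was -0.11 to 0.031 for Col18a1, -0.12 to 0.14 for Col8a1, -0.20 to 0.055 for Col8a2, -0.24 to 0.19 for Efemp1, -0.033 to 0.17 for Fbln5 and -0.21 to 0.034 for Timp3. In RPE the range for Mertk-/-V3 was -0.29 to 0.14 for Col18a1, -0.59 to 0.29 for Col4a3, -0.47 to 0.29 for Col8a1, -0.39 to 0.19 for Fbln5, -0.031 to 0.14 for Htra1, -0.16 to 0.16 for Mmp2 and -0.66 to 0.0032 for Timp3. In BMDMs the range for Mertk-/-V1 was -0.10 to 1.18 for Col8a1. In BMDMs the range for Mertk-/-V2 was -0.10 to 0.61 for Col8a1 and -0.94 to 0.0036 for Mmp2. In RPE the range for the contrast of Mertk-/-V1 with both newer lines was -0.39 to 0.072 for Col8a2, -0.086 to 0.21 for Efemp1 and -0.12 to 0.046 for Htra1. In RPE the range for Mertk-/-V1 was -0.14 to 0.10 for Efemp1. With all libraries kept or several left out, 563 differences of single genes and 73 counts stayed on their side of the threshold. Sulf2 in RPE, which was not tested, is among the 563 by its sign alone. In the same settings 49 differences changed sign, 6 passed only with the other setting, 1 passed only as reported, and 5 counts moved. Low read numbers limit Mmp2, Fbln5 and Col8a1 in BMDMs, and 3 libraries a group limit Mertk-/-V2 and Mertk-/-V3.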
